A study of Bos taurus with 29 samples.

Results

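The hormone receptors described here are 10 genes of the bovine corpus luteum: LHCGR, FSHR, MC2R, OXTR, PRLR, GHR, ESR1, ESR2, PGR and PGRMC1. They were chosen by name from the corpus luteum count table, which holds 19112 genes, and each of the 10 has 1 row there. All 10 passed the filter on low counts, as did 18939 of the 19112 genes.

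The series holds RNA-seq of cattle endometrial explants and of corpus luteum, both labelled as polyA RNA from a slaughterhouse source. The explants had been kept without an embryo, with 1 day 7 embryo made in vivo or with 1 day 7 embryo made in vitro, and the series title concerns signals from embryo and endometrium to the corpus luteum. Only the corpus luteum libraries could be read by gene symbol, and the endometrial table was not used here. The 4 corpus luteum groups are called NC, EE, AI and IVF here. NC (label NC, with DMEN in its titles) was taken as the control. EE (label CM_EE), AI (label CM_EE_AI) and IVF (label CM_EE_IVF) were taken to be tissue given explant-conditioned medium, from explants without an embryo, with the in vivo embryo and with the in vitro embryo. The labels leave the letters CM unexplained. EE, AI and IVF together are the CM groups. Genotype, age and cycle stage of the animals and the length of exposure were not used here. Each group held 3 libraries numbered R2, R4 and R5. What an R number marks is not stated, nor whether replicates come from separate animals, so p-values measure only the spread between these libraries, which may be technical. R2 titles carry another prefix than R4 and R5 titles, and a separate run of R2 cannot be told apart from the number itself.

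As background, the corpus luteum is the ovarian gland that forms from the ovulated follicle and secretes progesterone. LHCGR, FSHR and MC2R are the receptors of luteinizing hormone, follicle-stimulating hormone and corticotropin, and all of them signal mainly through a stimulatory G protein, cyclic AMP and protein kinase A. OXTR, the oxytocin receptor, signals mainly through Gq proteins and calcium, and ruminant luteal cells are themselves a source of oxytocin. PRLR and GHR are single-pass cytokine receptors that use JAK and STAT proteins, ESR1, ESR2 and PGR are ligand-activated transcription factors, and PGRMC1 is a haem-binding membrane protein linked to progesterone action.

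The 12 libraries held between 16536797 and 25747637 counts, and mitochondrial transcripts took between 44.4% and 64.0% of them. A floor of 3 counts stood for 0.121 to 0.170 CPM, which are counts scaled by TMM to a common library total, so only MC2R and OXTR had libraries near it. All 6 luteal steroidogenic markers (STAR, CYP11A1, HSD3B1, FDX1, SCARB1 and NR5A1) were present in every library, and their summed level ran from 1194 to 5569 CPM. In bulk RNA, fewer cells of a type and less RNA per cell cannot be told apart. CPM of different genes are not set against each other below, because gene lengths were not available and longer transcripts collect more reads.

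**Figure D1:**
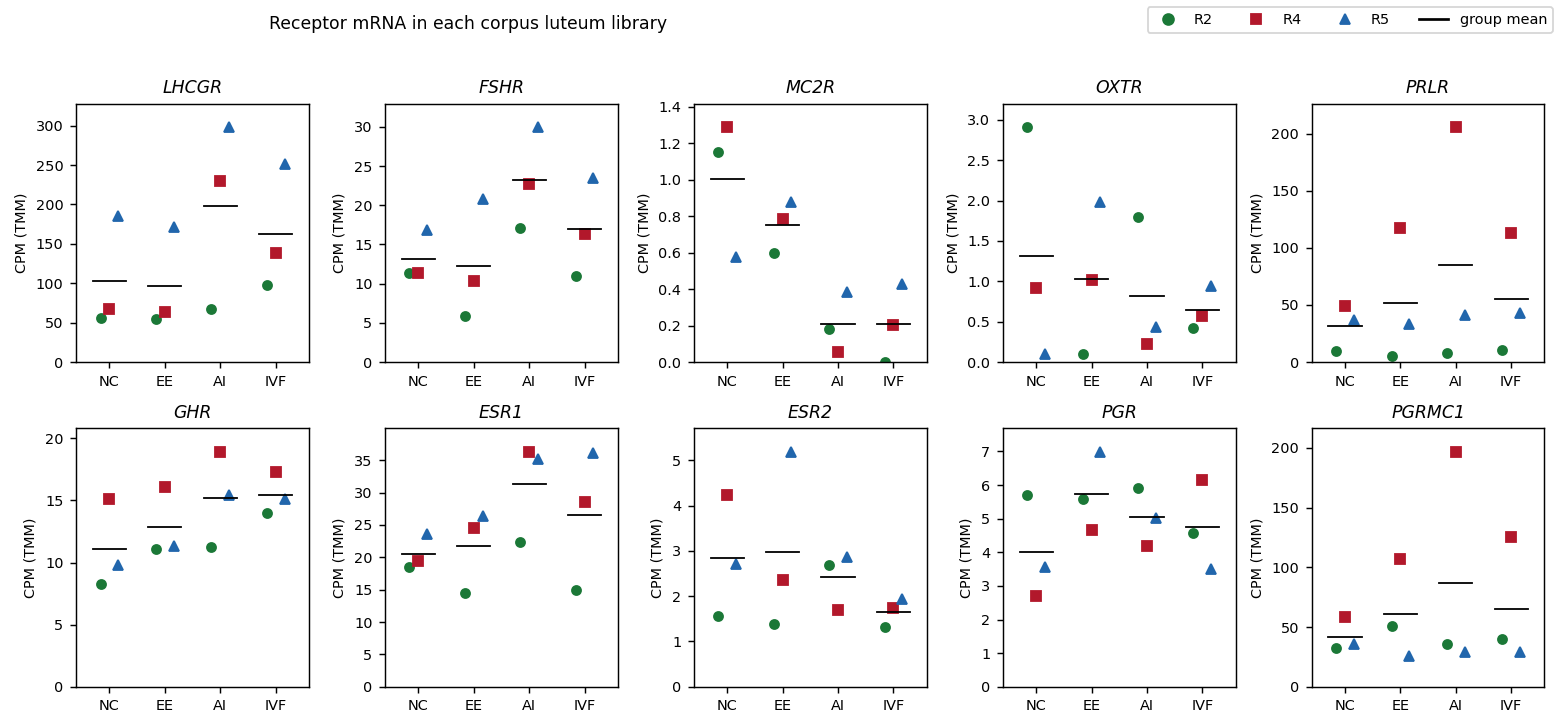
CPM of each receptor (linear axes from 0) in the 12 libraries, by group, with 1 point per library shaped by R number and a bar at the group mean (n = 3). The R5 libraries are the highest of their group for LHCGR and FSHR, the R4 libraries for PRLR, GHR and PGRMC1, and both embryo groups lie lowest for MC2R.

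None of the 10 receptors passed the threshold in any comparison of groups. In each of the 6 pairs of groups, in the mean of the 3 CM groups against NC, and in the test for any difference among the 4 groups, 0 of 10 receptors had an adjusted p below 0.05 (edgeR's quasi-likelihood test with Benjamini-Hochberg adjustment). The same was true of all genes, with 0 of 18939 called, a percentage of 0 in every one of these comparisons. At an unadjusted p below 0.05, 213 of the 18939 genes (1.12%) stood out in AI against NC, MC2R being the single receptor among them in this fit by group. In IVF against NC there were 281 such genes (1.48%), and in EE against NC 142 (0.75%). DESeq2 called 0 receptors in each comparison too. The 3 comparisons with NC share its libraries, so their values are given side by side and not as separate support. This fit by group left the R number out, so its intervals and p-values include the spread between R numbers.

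LHCGR, the luteinizing hormone receptor through which the gland is maintained, measured 56.0, 67.2 and 185 CPM in the R2, R4 and R5 libraries of NC. It measured 54.0, 64.0 and 171 CPM in EE, 67.8, 230 and 298 CPM in AI, and 98.3, 138 and 252 CPM in IVF. R5 was the highest library of all 4 groups and R2 the lowest, and the ranges of the groups overlapped throughout. The group means were 103 ± 71.4 CPM in NC, 96.3 ± 64.7 in EE, 199 ± 118 in AI and 163 ± 79.6 in IVF (SD, n = 3 each), so, ordered from AI through IVF and NC to EE, neighbouring means differed by less than the SD of either. The log2 difference from NC was 0.95 in AI (95% interval -0.43 to 2.33), 0.67 in IVF (-0.71 to 2.04) and -0.09 in EE (-1.46 to 1.28). None of the 3 passed the test. The SDs and these intervals include the spread between R numbers. In a model that also held the R number (a replicate block) the differences were 0.96 (0.38 to 1.55) in AI and 0.76 (0.18 to 1.34) in IVF. In EE the value was -0.08 (-0.66 to 0.50). No adjusted p was below 0.05 there either.

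Set against the NC library of the same R number, LHCGR was higher in all 3 AI libraries, by 0.28, 1.77 and 0.69 on the log2 CPM scale in R2, R4 and R5. It was higher in all 3 IVF libraries as well, by 0.81, 1.04 and 0.45. In EE the differences were -0.05, -0.07 and -0.11, which places the EE libraries just under NC at every number, as in 10.1% of all genes. Of all genes tested, 13.4% lay above NC in all 3 numbers of AI and 12.7% in all 3 numbers of IVF. Leaving out 1 library at a time put the AI log2 difference of the fit between 0.53 (without AI R5) and 1.59 (without NC R5). The widest of the 9 differences was in R4, where the summed luteal steroidogenic markers were 5569 CPM in AI and 1526 CPM in NC. Those markers' part in the LHCGR difference was not tested.

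FSHR, the follicle-stimulating hormone receptor of granulosa cells, measured 11.3, 11.4 and 16.9 CPM in NC (R2, R4, R5) and 17.0, 22.8 and 30.0 CPM in AI. It measured 5.83, 10.3 and 20.7 CPM in EE and 11.0, 16.4 and 23.4 CPM in IVF. Every AI library lay above every NC library, by the narrow margin of 17.0 against 16.9, whereas the other groups overlapped. Of all genes tested, 1.99% had AI wholly above NC. The log2 difference was 0.82 (95% interval -0.13 to 1.77), with an unadjusted p of 0.085 and an adjusted p of 0.9999 by edgeR's quasi-likelihood test. AI was also 0.92 above EE (-0.03 to 1.87), and the IVF difference from NC was 0.36 (-0.58 to 1.30). Granulosa markers were present, AMH excepted, which has no row in the table; FOXL2 ran from 53 to 189 counts and the aromatase gene CYP19A1 from 20 to 187.

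MC2R, the corticotropin receptor best known from the adrenal cortex, had very few counts, most of them in NC and EE. It had 23, 28 and 11 counts in NC (R2, R4, R5), 12, 14 and 20 in EE, 4, 1 and 8 in AI, and 0, 5 and 10 in IVF. As CPM these were 1.15, 1.29 and 0.575 in NC, 0.598, 0.786 and 0.879 in EE, 0.179, 0.0566 and 0.382 in AI, and 0, 0.202 and 0.428 in IVF. All 6 libraries of the embryo groups lay below all 6 libraries of the groups without an embryo, a split that 20 of 18939 genes (0.106%) showed in this direction and 14 (0.0739%) in the other. AI lay wholly below NC (1.95% of genes) and below EE (1.4%), and IVF did so too (3.32% and 2.43%). MC2R passed the filter on low counts through NC and EE, where it was high. That entry depends on the difference itself, so these shares and the p-values of MC2R are a description, not support for it.

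The log2 difference of MC2R from NC was -2.24 in AI (95% interval -4.47 to -0.02) and -2.23 in IVF (-4.44 to -0.02), with unadjusted p-values of 0.0486 and 0.048 and adjusted p-values of 0.9999 by edgeR's quasi-likelihood test. In EE it was -0.41 (-2.49 to 1.66). A contrast of the mean of both embryo groups with the mean of both other groups, added after these values were seen, gave -2.03 (-3.59 to -0.47), an unadjusted p of 0.015 and an adjusted p of 0.9996 by the same test. That contrast called 0 of 18939 genes, with 500 (2.64%) at an unadjusted p below 0.05. It gave LHCGR 0.85 (95% interval -0.12 to 1.83), FSHR 0.64 (-0.03 to 1.31), PRLR 0.76, PGRMC1 0.57, ESR1 0.45, GHR 0.36 and PGR 0.03. ESR2 was at -0.54 and OXTR at -0.67, and the intervals of all these receptors included 0. In the same contrast 6 of 6 fibroblast and stromal markers (median 0.71), 7 of 7 smooth muscle and pericyte markers (0.70) and 6 of 6 luteal steroidogenic markers (0.62) had positive log2 differences and 7 of 8 endothelial markers negative ones (-0.23), beside a median of 0.00 over all genes. None of these markers was called, and their part in the MC2R values was not tested. Several of these libraries lie at or near the floor, and the fitted folds depend on the prior count. Leaving out 1 library at a time kept the MC2R value of this contrast between -2.53 and -1.74, and its AI difference between -3.0 and -1.83. The adrenal genes CYP11B1, CYP21A2 and CYP11B2 have no row in the table, and MRAP, the accessory protein of MC2R, had means of 1.28 CPM in NC, 1.64 in EE, 2.97 in AI and 2.61 in IVF.

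OXTR, the oxytocin receptor, had 2 to 58 counts per library and followed neither the group nor the R number. It measured 2.91, 0.920 and 0.105 CPM in NC (R2, R4, R5), 0.0996, 1.01 and 1.98 in EE, 1.79, 0.226 and 0.429 in AI, and 0.425, 0.565 and 0.942 in IVF. The highest and the lowest libraries were both R2 libraries, and all 4 groups overlapped. The log2 difference from NC was -0.34 in EE (95% interval -2.74 to 2.06), -0.67 in AI (-3.09 to 1.75) and -1.02 in IVF (-3.45 to 1.41), and without NC R2 all 3 turned positive, at 0.99, 0.73 and 0.30. OXT, the gene of its ligand oxytocin, measured 137, 9.02 and 6.59 CPM in NC and 129 ± 58.1 CPM over the 4 R2 libraries, against 37.5 ± 20.5 in R4 and 7.12 ± 1.52 in R5 (SD, n = 4).

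PRLR, the prolactin receptor, measured 9.43, 49.5 and 36.6 CPM in NC (R2, R4, R5), 5.13, 117 and 33.0 in EE, 7.99, 206 and 41.2 in AI, and 10.9, 113 and 42.8 in IVF. In all 4 groups R4 was the highest library and R2 the lowest, and the R2, R4 and R5 values did not overlap. The log2 difference from NC was 1.42 in AI (95% interval -1.15 to 3.98), 0.81 in IVF (-1.73 to 3.34) and 0.70 in EE (-1.83 to 3.23). None passed the test, and the AI value was -0.37 without AI R4. Within R4 the 3 CM libraries measured 2.37, 4.16 and 2.29 times NC, in the order EE, AI and IVF. Within R2 the ratios were 0.544, 0.847 and 1.16, and within R5 they were 0.900, 1.13 and 1.17.

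GHR, the growth hormone receptor, measured 8.28, 15.1 and 9.83 CPM in NC (R2, R4, R5), 11.1, 16.1 and 11.3 in EE, 11.3, 18.9 and 15.5 in AI, and 14.0, 17.3 and 15.1 in IVF. All 9 CM libraries lay above the NC library of the same R number, at 1.07 to 1.69 times its level, while the groups themselves overlapped. This arrangement, chosen after the values were seen, held for 209 of 18939 genes (1.1%), and it sets 9 libraries against only 3 controls. The mean of the 3 CM groups was 0.38 above NC on the log2 scale (95% interval -0.17 to 0.93), with an unadjusted p of 0.155 and an adjusted p of 1.000 by edgeR's quasi-likelihood test. GHR had the narrowest range of the 10 receptors, its highest library being 2.29 times its lowest.

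ESR1, oestrogen receptor alpha, measured 18.6, 19.5 and 23.6 CPM in NC (R2, R4, R5), 14.5, 24.5 and 26.3 in EE, 22.3, 36.3 and 35.2 in AI, and 15.0, 28.6 and 36.1 in IVF. R2 was the lowest library of every group, and AI lay above NC at each R number, at 1.20, 1.87 and 1.49 times its level. Of all genes tested, 13.4% had AI above NC at each R number. The log2 difference of AI from NC was 0.61 (95% interval -0.16 to 1.37), that of IVF 0.37 (-0.39 to 1.13) and that of EE 0.08 (-0.68 to 0.85), and none passed the test.

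ESR2, oestrogen receptor beta, measured 1.55, 4.23 and 2.72 CPM in NC, 1.39, 2.36 and 5.18 in EE, 2.69, 1.70 and 2.86 in AI, and 1.32, 1.74 and 1.93 in IVF. Its groups overlapped, and IVF held the lowest library and the smallest spread, with a log2 difference from NC of -0.77 (95% interval -1.92 to 0.38). PGR, the nuclear progesterone receptor, measured 5.72, 2.71 and 3.56 CPM in NC, 5.58, 4.66 and 6.99 in EE, 5.92, 4.19 and 5.01 in AI, and 4.59, 6.14 and 3.51 in IVF. Its highest log2 difference from NC was 0.52 in EE (-0.27 to 1.31), and no R number was the highest in all groups.

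PGRMC1, the membrane-associated progesterone receptor component, measured 32.7, 58.0 and 35.5 CPM in NC (R2, R4, R5), 50.7, 107 and 25.4 in EE, 35.7, 197 and 29.4 in AI, and 40.2, 125 and 29.3 in IVF. R4 was the highest library in every group, and the 3 CM libraries lay above NC in R2 and R4 and below it in R5, a change of side that 36.9% of all genes showed. The log2 difference from NC was 1.05 in AI (95% interval -0.60 to 2.70), 0.63 in IVF (-1.01 to 2.26) and 0.53 in EE (-1.11 to 2.17). Without AI R4 the first of these was -0.37.

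**Figure D2:**
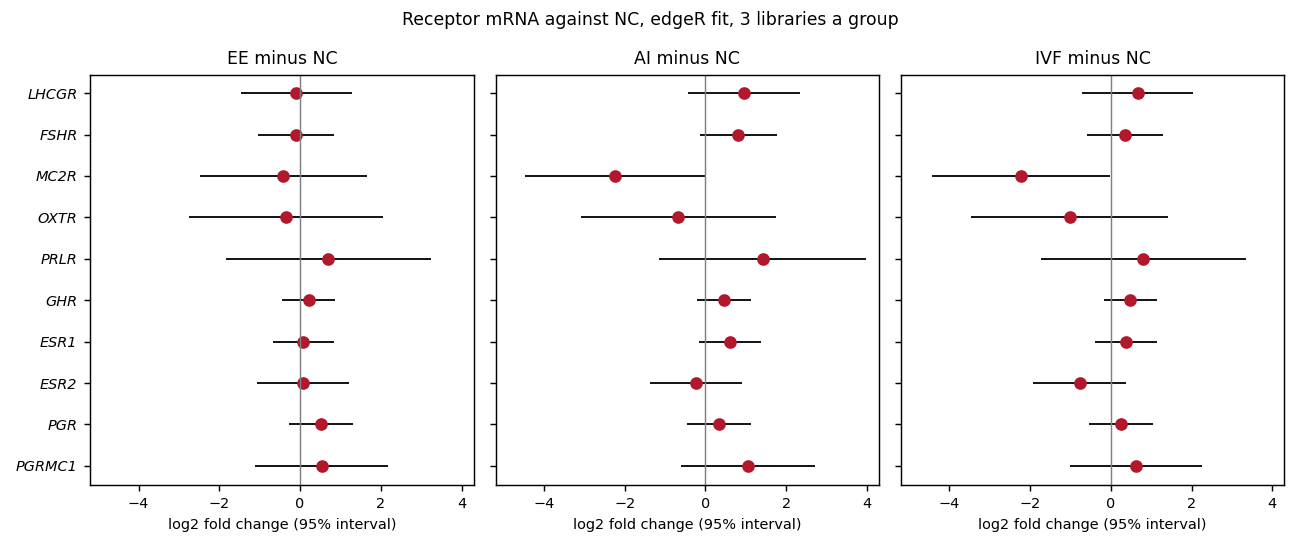
Log2 fold change from NC (points) with 95% intervals (lines) of the edgeR fit for the 10 receptors in the 3 CM groups, 3 libraries a group. Only the MC2R intervals in AI and IVF leave 0 outside, both ending at -0.02, and every adjusted p is near 1.

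Differences between R numbers passed the test where those between groups did not. In a model with group and R number, 6 of 10 receptors passed the test for a difference among R2, R4 and R5, namely LHCGR, FSHR, PRLR, GHR, ESR1 and PGRMC1, where 26.7% of all genes did (5063 of 18939; edgeR's quasi-likelihood test with Benjamini-Hochberg adjustment). The adjusted p was 4.21e-05 for PRLR, 0.000656 for PGRMC1, 0.000661 for LHCGR, 0.00577 for FSHR, 0.0149 for ESR1 and 0.0383 for GHR. It was 0.304 for ESR2, 0.63 for PGR, 0.692 for MC2R and 0.726 for OXTR. Leaving out 1 library at a time gave 3 to 5 receptors, the lowest without EE R5. GHR lost its call whichever library was left out, ESR1 lost it when any 1 of 5 libraries was left out, and LHCGR, PRLR and PGRMC1 kept theirs in all 12 cases. Without the R2 libraries 3 receptors and 2904 genes were past the threshold for R4 against R5.

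The called receptors did not share 1 order of R numbers. LHCGR averaged 69.0 ± 20.5 CPM in R2, 125 ± 77.8 in R4 and 226 ± 59.4 in R5 (SD, n = 4), and its R5 libraries were 1.70 above R2 on the log2 scale (95% interval 1.18 to 2.21). FSHR, with 11.3 ± 4.59, 15.2 ± 5.69 and 22.8 ± 5.51 CPM, stood in the same order. PRLR averaged 8.37 ± 2.47, 121 ± 64.3 and 38.4 ± 4.48 CPM, and its R4 libraries were 3.79 above R2 (3.04 to 4.53). PGRMC1 averaged 39.8 ± 7.87, 122 ± 57.5 and 29.9 ± 4.18 CPM, with R4 1.93 above R5 (1.30 to 2.57). The gonadotropin receptors were thus highest in R5, and the prolactin receptor and PGRMC1 in R4.

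Marker genes of the gland's cell types also differed between R numbers, to unequal extents and not always in 1 direction within a list, beside 26.7% of all genes called. The summed luteal steroidogenic markers, all 6 of them called, averaged 1536 CPM in R2, 3250 in R4 and 1544 in R5. Singly, 5 of them were highest in R4 and NR5A1 in R5. Fibroblast and stromal markers (5 of 6 called) averaged 764, 535 and 362 CPM, and smooth muscle and pericyte markers (5 of 7 called) 355, 416 and 219. RGS5, a called member of the second list, was highest in R2. Endothelial markers (6 of 8 called) averaged 1365, 917 and 923 CPM, although TEK and EMCN, the latter not called, were lowest in R2. Granulosa markers (2 of the 5 with a row called) averaged 22.7, 119 and 24.5 CPM. Most of their R4 sum was INHBA, a called member, which averaged 13.7, 96.5 and 5.73 CPM. FST, the other called member, was above R2 in both R4 and R5, with R4 only 0.16 above R5 on the log2 scale. Of the members not called, CYP19A1 was highest in R5, and FOXL2 and INHA in R4. Epithelial markers (2 of the 4 with a row called) averaged 20.3, 63.4 and 8.39 CPM, with EPCAM at 0 to 13 counts and KRT19 without a row. Red cell markers averaged 43.6, 4.01 and 4.18 CPM through HBA and HBA1, the 2 of 4 that were called, which are near-identical genes that reads may not separate. HBB and ALAS2 were not called. Of the theca, macrophage and T cell markers 1 of 2, 1 of 6 and 0 of 5 were called. The mitochondrial share averaged 52.2%, 46.3% and 58.5%. The part of these in the receptor differences between R numbers was not tested.

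**Figure D3:**
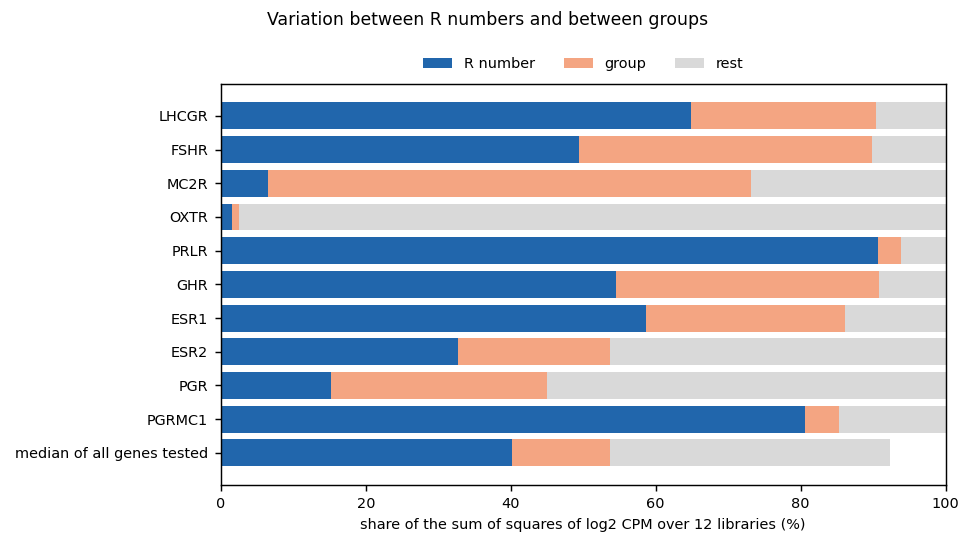
Share of the sum of squares of log2 CPM (%) over 12 libraries between R numbers, between groups and left over, for each receptor and as the median of all genes tested (each median taken on its own, so they do not add to 100). PRLR has 90.7% between R numbers, MC2R 66.8% between groups and OXTR 97.5% in neither.

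As a description of where the variation of log2 CPM lay, the R number held 90.7% for PRLR, 80.6% for PGRMC1, 64.9% for LHCGR, 58.7% for ESR1, 54.5% for GHR and 49.4% for FSHR, against a median of 40.1% over all genes. The group held 66.8% for MC2R, 40.4% for FSHR, 36.3% for GHR, 29.8% for PGR, 27.4% for ESR1, 25.6% for LHCGR and 21.0% for ESR2, against a median of 13.6%. PGRMC1, PRLR and OXTR lay below it, at 4.63%, 3.19% and 0.93%. The group has 3 df and the R number 2, so their shares are not on a like footing. The MC2R share rests on 0 to 28 counts per library and on a gene that passed the filter through NC and EE. For OXTR 97.5% lay in neither, and for PGR 55.0%, against a median of 38.6%. MC2R thus had most of its variation between groups and OXTR almost none of it in either, while ESR2 and PGR had less between R numbers than the median gene, at 32.7% and 15.2%.

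**Figure D4:**
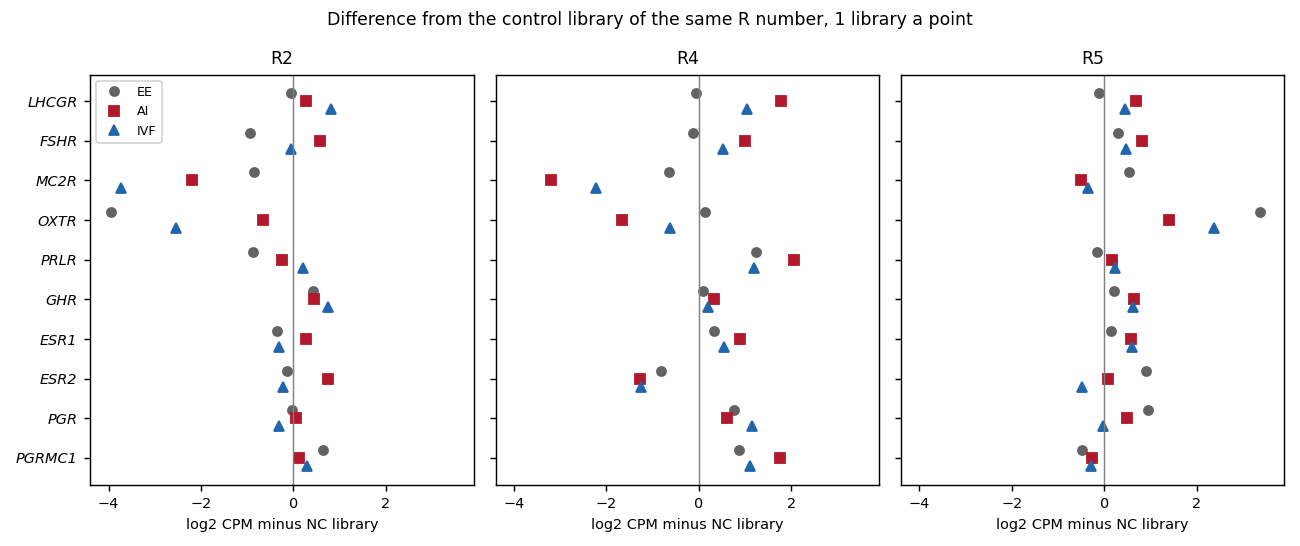
Log2 CPM (prior count 2) of each CM library minus the NC library of the same R number, 1 point per library (groups set slightly apart vertically), in panels for R2, R4 and R5. GHR points lie right of 0 in all panels, LHCGR points of both embryo groups do too, and OXTR points lie left of 0 in R2 and right of it in R5.

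Among genes of the receptors' pathways none was called between groups, and the share called between R numbers ran from 3 of 15 to 15 of 19 over 7 lists, beside 26.7% of all genes. The list of cAMP signalling genes of the gonadotropin and corticotropin receptors also held the receptor accessory proteins MRAP and MRAP2. Of its members, 0 of 28 passed in any group comparison. Between R numbers 14 of 28 differed (50%, beside 26.7% of all genes), MRAP among them. The 2 with the lowest group p were CREB1, a transcription factor phosphorylated by protein kinase A, at 12.8 ± 0.819 CPM in NC and 9.01 ± 0.514 in IVF, and PRKAR2B, a regulatory subunit of that kinase, at 22.2 ± 2.05 and 28.6 ± 9.05 (SD, n = 3). PDE4D, a phosphodiesterase that degrades cAMP and the member with the lowest p for the R number, averaged 864 CPM in R2, 293 in R4 and 171 in R5 (adjusted p = 1.53e-05, edgeR), so it stood in the reverse order of LHCGR.

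Of the JAK and STAT genes acting with PRLR and GHR, 0 of 18 passed between groups and 10 of 18 between R numbers (55.6%, beside 26.7% of all genes). SOCS2, a feedback inhibitor of growth hormone signalling, averaged 4.50 ± 0.538 CPM in NC and 3.60 ± 1.17 in AI, and SOCS1, another inhibitor of the family, 3.41 ± 1.90 and 5.63 ± 4.55. JAK1, one of the kinases, averaged 429 CPM in R2 and 258 in R4 (adjusted p for the R number = 0.000138, edgeR), whereas PRLR was lower in R2 than in R4. JAK2, another of the kinases, was 0.13 higher in R4 than in R2 on the log2 scale and was not called (adjusted p = 0.107, edgeR). Of the Gq genes acting with OXTR, 0 of 17 passed between groups and 8 of 17 (47.1%, beside the same 26.7%) between R numbers, OXT among the latter (adjusted p = 0.000138, edgeR). The protein kinase C genes PRKCA and PRKCB had the lowest group p, with 17.7 ± 2.64 and 23.6 ± 3.22 CPM in NC and 18.7 ± 6.80 and 40.7 ± 24.1 CPM in AI.

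Of the steroid receptor partners, 0 of 17 passed between groups and 11 of 17 between R numbers (64.7%, beside 26.7% of all genes). The cochaperones STIP1 and FKBP4, which act in the folding of steroid receptors with HSP90, had the lowest group p, and FKBP4 averaged 19.8 ± 2.43 CPM in R2, 74.0 ± 26.1 in R4 and 44.1 ± 9.12 in R5 (adjusted p = 0.000466, edgeR). Of the other steroid and membrane progesterone receptors, 0 of 15 passed between groups and 3 of 15 between R numbers, or 20.0%, which is below the 26.7% of all genes. NENF, of the same haem-binding protein family as PGRMC1, averaged 5.35 ± 1.87 CPM in NC, 3.50 ± 0.832 in EE and 6.81 ± 2.78 in AI, and PAQR6, a membrane progestin receptor, 1.22 ± 0.737 CPM in NC and 0.524 ± 0.188 in EE. Of the other hormone receptors, 0 of 15 passed between groups and 6 of 15 between R numbers (40.0%, beside 26.7% of all genes). PTGFR, the prostaglandin F2 alpha receptor through which luteolysis is triggered, averaged 139 ± 45.7 CPM in R2, 400.1 ± 218 in R4 and 114 ± 7.45 in R5 (adjusted p = 0.00225, edgeR), and GNRHR, the gonadotropin-releasing hormone receptor, had group means of 0.097 to 0.452 CPM.

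The genes that luteinizing hormone, steroid and cytokine receptors are known to regulate held 15 of 19 members that differed between R numbers (78.9%, beside 26.7% of all genes), 14 of them highest in R4. None of the 19 passed between groups. In EE against NC 17 of 19 had positive log2 differences, with a median of 0.20 against -0.03 over all genes. In AI against NC 15 of 19 did, with a median of 0.59 against 0.03 over all genes, and in IVF against NC 15 of 19 did, with a median of 0.35 against -0.04. In IVF against AI all 19 had negative values, with a median of -0.16 against -0.07. These genes share libraries and regulation, so the counts are a description, and the share of all genes with each sign is not given here. STAR, CYP11A1, HSD3B1, SCARB1 and NR5A1 are also luteal steroidogenic markers, so the lists overlap. The sum of those markers in AI was 1353, 5569 and 1774 CPM in R2, R4 and R5. HSD3B1, which makes progesterone from pregnenolone, measured 472, 612 and 786 CPM in NC (R2, R4, R5) and 543, 2470 and 983 in AI, the high value being the R4 library in which LHCGR, PRLR and PGRMC1 were also high. NR5A1, a nuclear receptor that drives steroidogenic genes, measured 20.9, 24.5 and 49.4 CPM in NC and 27.4, 52.5 and 62.8 in AI.

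The pattern of a receptor over the 12 libraries was matched with the 12646 other genes (12647 for MC2R and OXTR) that have a symbol and a mean of at least 1 CPM, by Pearson's r of log2 CPM, as a description, since the libraries share R numbers and depth. LHCGR was most like NR5A1 (r = 0.98), followed by MYOF and HIBCH, and FSHR most like NR1H4, the bile acid receptor (r = 0.98), followed by DOCK5 and PLEKHH1. PRLR was most like PRUNE2 (r = 0.99), then ACSS2 and IFI6, and PGRMC1 most like PAF1 (r = 0.99), then MCL1 and YPEL5. ESR1 was most like IGSF8 (r = 0.95), then BEX3 and FCGR3A, ESR2 most like DNHD1 (r = 0.90), then RFX3 and TESMIN, and PGR most like NLRP3 (r = 0.86), then LAT2 and THSD4. MC2R was most like PRSS42 (r = 0.91), then TEX49 and C17H4orf45, and OXTR most like FBN3 (r = 0.95), then SLC24A2 and CUX2.

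Among the receptors themselves, FSHR and ESR1 were the most alike pair (r = 0.88 over 12 libraries), ahead of LHCGR and FSHR (0.87) and LHCGR and ESR1 (0.81). After the mean of each R number was taken out these were 0.84, 0.72 and 0.67. LHCGR and FSHR are also adjacent protein-coding genes in the RefSeq annotation of the ARS-UCD2.0 assembly. PRLR and GHR had r = 0.75, which was 0.37 after the R number means were taken out. LHCGR and MC2R had r = -0.30, and -0.87 after that step, MC2R being low in the libraries where LHCGR stood above the other libraries of its R number. MC2R counts went down to 0, where the prior count of 2 largely sets the log2 value. The step also left differences between groups in, so this r partly restates the group values of both genes.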

How the data were processed

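For the corpus luteum the authors deposited whole counts of reads by gene, in 12 columns. None of the deposited columns had fractional values, and no estimated counts were among those the authors deposited. Tools named in the submitters' processing notes are STAR, featureCounts, Trim Galore, cutadapt and DESeq2, without versions. For the build, the annotation and the library kit, the sources used here give nothing. The labels list 20 corpus luteum samples for 12 columns, and how title pairs were joined is not given. No gene summed to fewer than 36 counts, so a filter had been applied before deposit.

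Genes were kept with filterByExpr, libraries scaled by TMM, and 1 edgeR 4.0.16 quasi-likelihood model (R 4.3.3) fitted to all 12 libraries by group, with Benjamini-Hochberg adjustment over all 18939 genes and a threshold of 0.05. The R number was tested with 2 df in a model with group. Log2 CPM used a prior count of 2 and fitted folds one of 0.125. DESeq2 1.42.0 was an alternative. Scripts were checked on simulated counts. The receptors, lists and tests were chosen with earlier results of these data known. Each signalling list names its 2 genes with the lowest p among the 4 groups, and each receptor its 3 most alike genes, which for GHR are not reported here. Genes named for the R number, and other marker genes, were chosen after their values were seen. Within groups 0 of 12 pairs of libraries were identical. Figures were drawn with matplotlib 3.10.9.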

Additional observations from a re-analysis of the deposited data

Results flagged for a closer look

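The differences of 2 of the 10 receptors from NC went opposite ways at different R numbers in all 3 CM libraries. Of all genes tested, 36.9% (6988 of 18939) did so too, so this is not particular to these receptors. The difference between the numbers was not tested. OXTR was above NC in R5, by 3.38 in EE, 1.40 in AI and 2.38 in IVF on the log2 CPM scale, and in R2 its differences were -3.95, -0.67 and -2.53. The widest of these rest on NC R5 and EE R2, which held 2 OXTR counts each, under the floor of 3. PGRMC1 was above NC in R2, by 0.63, 0.13 and 0.30 in the same order, and in R4, by 0.88, 1.76 and 1.11, while in R5 its differences were -0.48, -0.27 and -0.28. The 3 differences of an R number share 1 NC library.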

How the results depend on the processing

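No receptor passed the threshold between groups under DESeq2, other size factors, no mitochondrial or ribosomal RNA genes, no filter on low counts, a replicate block, 2-group fits or the omission of any library. DESeq2 called 1 gene, no receptor, among the 4 groups. The R number call held for 3 to 5 receptors and for 3374 to 5141 genes with 1 library left out, the lowest without EE R5 and AI R5, and for 3 receptors and 2904 genes without the R2 libraries, a setting chosen after seeing the data. GHR lost its R number call with DESeq2 (adjusted p = 0.0547), RLE size factors (0.0733) and no group term (0.069). Leaving out mitochondrial and ribosomal RNA genes raises every CPM by construction, since the total shrinks.

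Of the 80 log2 folds, DESeq2 and RLE size factors each turned 1, MC2R in IVF against AI, to -0.0079 and -0.0058. Leaving out 1 library at a time turned the direction of 35 of 80 folds, none of them called. The ranges of these 35 folds were as follows. For EE against NC they were LHCGR -0.79 to 0.58, FSHR -0.72 to 0.20, OXTR -1.34 to 0.99, PRLR -0.74 to 1.22, ESR1 -0.094 to 0.27, ESR2 -0.60 to 0.48 and PGRMC1 -0.14 to 0.88. For AI against NC they were OXTR -2.12 to 0.73, PRLR -0.37 to 1.93, ESR2 -0.51 to 0.18 and PGRMC1 -0.37 to 1.47. For IVF against NC they were OXTR -1.68 to 0.30, PRLR -0.25 to 1.29 and PGRMC1 -0.28 to 0.98. For the mean of the 3 conditioned-medium groups against NC they were OXTR -1.31 to 0.67 and ESR2 -0.59 to 0.10. For the mean of the 2 embryo groups against the mean of the 2 groups without an embryo they were OXTR -1.41 to 0.019, PRLR -0.13 to 1.48, PGR -0.091 to 0.22 and PGRMC1 -0.14 to 0.91. For AI against EE they were OXTR -1.68 to 0.64, PRLR -1.07 to 2.16, ESR2 -0.62 to 0.36 and PGRMC1 -0.91 to 1.20. For IVF against EE they were OXTR -1.22 to 0.21, PRLR -0.95 to 1.55 and PGRMC1 -0.81 to 0.77. For IVF against AI they were LHCGR -0.75 to 0.13, MC2R -0.99 to 0.77, OXTR -0.78 to 0.99, PRLR -1.66 to 1.18, GHR -0.11 to 0.21, ESR1 -0.52 to 0.051, PGR -0.32 to 0.10 and PGRMC1 -1.33 to 1.00. The cause was not tested.

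Libraries of the same R number were alike: 15 of 18 same-numbered pairs from different groups had correlated deviations over 0.1, the lowest 0.08. Of the differently numbered pairs 6 of 36 did, and all 12 libraries correlated best with one of their own number. The labels state no pairing and the rule used did not count one, so the main fit left the R number out. Its intervals therefore include the spread between R numbers. PRLR in AI against NC was 1.42 (95% interval -1.15 to 3.98) in that fit and 0.64 (-0.14 to 1.42) with a replicate block. With a replicate block 0 genes were called in any comparison, with 298 in EE, 679 in AI and 817 in IVF against NC at an unadjusted p below 0.05. The block turned OXTR and ESR2 in EE against NC to 0.041 and -0.016 and MC2R in IVF against AI to -0.11. With the block 5 of 10 receptors in AI against NC had an unadjusted p below 0.05 by edgeR, as did 3.59% of all genes: LHCGR 0.96 (95% interval 0.38 to 1.55), FSHR 0.80 (0.29 to 1.30), ESR1 0.57 (0.12 to 1.01), GHR 0.47 (0.05 to 0.89) and MC2R -2.46 (-4.82 to -0.11), each with an adjusted p of 0.988. In IVF against NC these were LHCGR at 0.76 (0.18 to 1.34), GHR at 0.52 and MC2R at -2.57, beside 4.31% of all genes. In EE against NC and IVF against AI there were none, beside 1.57% and 0.86%. In AI against EE they were LHCGR, FSHR and ESR1 (4.57%), and in IVF against EE LHCGR and FSHR (5.15%). In the embryo groups against the other groups, a contrast added after the values were seen, they were LHCGR, FSHR, MC2R, GHR and ESR1 (8.80%). Their log2 differences were 0.90 (95% interval 0.49 to 1.31), 0.67 (0.31 to 1.03), -2.24 (-3.91 to -0.57), 0.38 (0.08 to 0.68) and 0.41 (0.10 to 0.72). The lowest adjusted p of any gene there was 0.498 by edgeR. In the CM mean against NC the receptors with an unadjusted p below 0.05 were LHCGR, GHR and MC2R (3.16%). MC2R passed the filter on low counts through NC and EE, where it was high. Its p-values are therefore a description in each of these comparisons. LHCGR, FSHR and ESR1 varied together over the same libraries, so they are not separate support beside the share of all genes. With the block and without R4 libraries, an alternative added after seeing the data, PRLR, ESR2 and PGRMC1 in AI against NC were -0.024, 0.48 and -0.084, and in the mean of the 3 CM groups against NC -0.099, 0.20 and -0.0063.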
